A study of Mus musculus with 50 samples.

Results

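The printed full names of the glucocorticoid receptor Nr3c1, the mineralocorticoid receptor Nr3c2, FK506 binding protein 5 (Fkbp5) and Kruppel-like factor 15 (Klf15) were carried by 5 cDNA clones of the 22824 clones on the array. The clones of these genes were taken by printed name alone. The genes themselves were chosen with earlier results of these data known. Klf15 was printed as 2 clones and each of the other 3 genes as 1 clone. Tissue punched from the paraventricular nucleus of the hypothalamus (PVN) and the region beside it came from male mice of the inbred strains C57BL/6 and DBA/2J, 3 to 5 months old and housed singly. Mice swam for 5 min and were killed 4 h or 8 h later, and unstressed mice of each strain gave the basal RNA. All mice were killed at the same time of day, so the 4 h and 8 h groups swam at different clock times. Between those groups, time since the swim and clock time of the swim cannot be told apart. The labels give no engineered allele and no drug for any group. RNA of several mice was combined into 1 pool per condition, so that the 6 pools were a basal, a 4 h and an 8 h pool of C57BL/6 and the same 3 of DBA/2J. Each of 5 pairs of pools was hybridised to 10 arrays, namely basal DBA/2J against basal C57BL/6 and each stressed pool against the basal pool of its own strain. In each pair the numerator pool was in Cy5 on 5 arrays and in Cy3 on the other 5.

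The PVN holds the neurons that start the hormonal stress response by releasing corticotropin-releasing hormone (Crh). Glucocorticoids released by the adrenal gland bind Nr3c1 in many tissues, and in the PVN this receptor is known for holding back further Crh production. Before it binds hormone, Nr3c1 is held in the cytosol in a complex with Hsp90, the co-chaperone p23 (Ptges3) and an immunophilin. Fkbp5 is one such immunophilin, lowers the affinity of the receptor for hormone and is itself induced by the receptor, which makes a short feedback loop. Klf15 is a transcription factor that glucocorticoids induce in several tissues. Nr3c2 binds the same hormones with higher affinity and is best known in the brain from the hippocampus.

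In the nucleus Nr3c1 binds the glucocorticoid response element, a palindrome written here as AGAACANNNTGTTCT. The window of 250 bases upstream of the annotated start was searched for the half-sites AGAACA and TGTTCT, each of which is the other on the opposite strand. The windows of Fkbp5 and Klf15 are shown because these genes are the receptor targets among the clones, and a window of Sgk1, a kinase induced by glucocorticoids, is shown because it holds the full element. Capitals mark half-sites. The sequences are those of RefSeq on GRCm38.p6, given 5′ to 3′ on the strand of the gene, namely chr17:28486150-28486399 on the minus strand for Fkbp5, chr6:90462326-90462575 on the plus strand for Klf15 and chr10:21993640-21993889 on the plus strand for Sgk1.
Fkbp5: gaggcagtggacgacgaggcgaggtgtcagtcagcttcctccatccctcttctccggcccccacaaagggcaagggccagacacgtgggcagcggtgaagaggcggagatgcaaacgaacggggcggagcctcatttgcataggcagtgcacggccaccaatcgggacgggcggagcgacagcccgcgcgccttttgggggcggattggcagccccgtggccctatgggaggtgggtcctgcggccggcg
Klf15: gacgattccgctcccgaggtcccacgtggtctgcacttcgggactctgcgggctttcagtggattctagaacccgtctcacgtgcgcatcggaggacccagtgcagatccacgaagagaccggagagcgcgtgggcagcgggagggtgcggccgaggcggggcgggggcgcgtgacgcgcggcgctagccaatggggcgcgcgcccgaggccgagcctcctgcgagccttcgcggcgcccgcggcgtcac
Sgk1: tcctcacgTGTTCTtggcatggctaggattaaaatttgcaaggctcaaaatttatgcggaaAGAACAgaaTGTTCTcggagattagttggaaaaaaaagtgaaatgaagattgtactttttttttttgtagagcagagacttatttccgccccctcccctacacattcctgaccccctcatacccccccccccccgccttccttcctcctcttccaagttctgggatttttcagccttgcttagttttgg
The Fkbp5, Klf15 and Nr3c2 windows held no half-site. The Sgk1 window held 3 half-sites, which start at -242, -189 and -180 relative to the annotated start, and the last pair of them forms the full element. Of all 32851 such windows, 5284 (16.1%) held at least 1 half-site and 3 held the full element. A window without a match says only that these letters are not in it.

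The microarrays were scanned at a fixed gain, and median intensities per array ran from 127 to 270 in Cy5 and from 205 to 445 in Cy3. The 1170 empty spots gave a measure of background on each array, and a spot is called bright here where it exceeded the 95th percentile of the empty spots in the same channel. That percentile was far higher on the arrays of DBA/2J at 8 h, at 1426 to 2879 in Cy5, than on the arrays of C57BL/6 at 4 h, at 171 to 453. The median of the empty spots differed less, at 51.4 to 122 in Cy5 against 43.5 to 72.3. In Cy5, 5.64% to 9.76% of all clones were bright on the former arrays and 34.2% to 61.8% on the latter. A spot that is not bright can thus still lie above most empty spots. The arrays of a pair repeat the hybridisation of the same 2 pools, so all errors and p-values given here describe labelling and hybridisation and compare 2 pools of RNA, not the conditions. In punched tissue, fewer cells of a type and less RNA per cell cannot be told apart. Among defining markers, the Crh clone was bright on 0 of 50 arrays in either channel, the vasopressin (Avp) clone on 16 in Cy5 and 13 in Cy3, and the thyrotropin-releasing hormone (Trh) clone on 24 in Cy5 and 23 in Cy3. The myelin basic protein clones (Mbp) were bright on 50 of 50 arrays in both channels. The oxytocin (Oxt) clone was bright on 1 array in Cy5 and on 3 in Cy3. Of the defining PVN peptides, Trh and Avp were thus measured on part of the arrays, Oxt on very few, and Crh was not detectable.

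The clones of the 2 receptors and their targets spanned most of the brightness range of the array. Nr3c1 was the brightest, at a median of 1278 in Cy5 and 2058 in Cy3 over the 50 arrays, and was brighter than 91.7% of all clones. It was bright on 41 of 50 arrays in each channel. Fkbp5 followed with medians of 918 in Cy5 and 1637 in Cy3, and was bright on 35 and 37 arrays. Nr3c2 had medians of 202 in Cy5 and 522 in Cy3 and was bright on 4 arrays in Cy5 and on 12 in Cy3. Both Klf15 clones lay at the level of the empty spots. Klf15 clone 1 was bright on 1 array in Cy5 and on 0 in Cy3, and Klf15 clone 2 on 0 of 50 arrays in either channel. Only Nr3c1 and Fkbp5 therefore carry ratios that rest on signal above background over most arrays. No spot of these clones was saturated. Brightness also depends on the length and labelling of each clone and gives no order of transcript levels between genes.

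**Figure D1:**
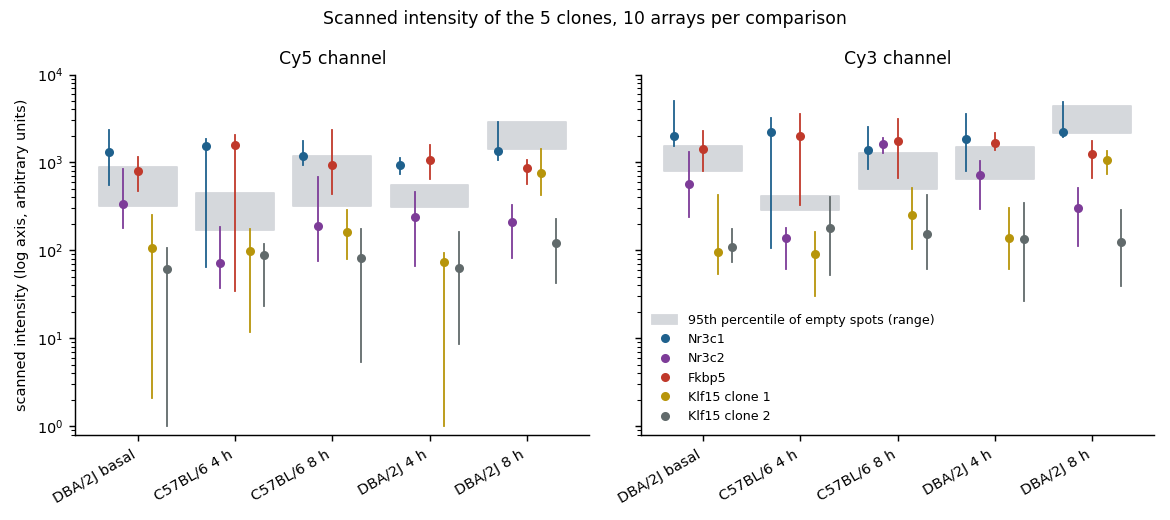
Scanned intensity (log axis) of the 5 clones in the Cy5 channel (left) and the Cy3 channel (right) on the arrays of each comparison, named by its numerator pool, with dots at the median of 10 arrays, bars from the lowest to the highest array, and a grey band for the range of the empty spots' 95th percentile. The grey band is highest on the arrays of DBA/2J at 8 h (1426 to 2879 in Cy5), and the medians of both Klf15 clones lie under it in every comparison. Values under 1 are drawn at 1.

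Ratios are given as log2 of numerator over denominator with their standard error from limma over 10 arrays, and a clone is called changed at an absolute log2 ratio of 0.5 or more (a fold of 1.414) with an adjusted p under 0.05 over all 22824 clones. The direction is that of the labelled dyes, with the stressed pool or the DBA/2J pool as numerator. The study gives the opposite direction for the genes it lists in every comparison, including Nr3c1. It also reports real-time PCR on samples that were not pooled, for an inhibitory G protein subunit and the amyloid precursor protein. In stressed DBA mice that PCR went in the direction of the study for both transcripts. The study also reports an increase by in situ hybridisation in the PVN, without showing those data. These reports favour the direction of the study over that of the labelled dyes for those transcripts. No PCR is given for Nr3c1, and the array files alone do not settle which is right. With the sign turned, every ratio below keeps its size and error and changes sign.

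None of the 5 clones was called in a comparison of a stressed pool with its own basal pool. The background of calls there was low, at 0.289% of all clones in C57BL/6 at 4 h, 0.0832% in C57BL/6 at 8 h, 0.153% in DBA/2J at 4 h and 0.158% in DBA/2J at 8 h. Calls of a single direction were as rare as 0.0175% (C57BL/6 at 4 h, higher), 0.00438% (C57BL/6 at 8 h, lower) and 0.0131% (DBA/2J at 4 h, higher). At an unadjusted p under 0.05, limma gave 1, 0, 2 and 1 of the 5 clones in the same order, beside 12.3%, 9.28%, 10.7% and 12.0% of all clones. The t-test named in the methods, after adjustment, called 1 clone in DBA/2J at 4 h and 0 in the other 3. In the basal comparison 1 of 5 clones was called, beside 3.62% of all clones. Of the 4 tests of one response against another, described next, 2 called Nr3c1 and no other of these clones, and 2 called none. At an unadjusted p under 0.05 they gave 2 of 5 clones for the strain difference at 4 h, 1 for that at 8 h, 2 for 8 h against 4 h in C57BL/6 and 2 for the same in DBA/2J, beside 13.6%, 10.4%, 10.7% and 12.1% of all clones.

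Nr3c1 stood out in the DBA/2J pool at 4 h. Its log2 ratio to basal DBA/2J was -0.17 on the lowest array, 0.62 at the median and 0.97 on the highest, and 9 of 10 arrays were above 0. The exception was array 7, which lay below the 0.38 to 0.97 of the other 9. The fitted ratio was 0.56 ± 0.13 (-0.56 with the sign turned), a 1.48-fold difference with a 95% interval of 0.28 to 0.84 in log2. Its adjusted p was 0.12, so it was not called, while its unadjusted p was 0.00074. Both dye orientations gave the same direction, with means of 0.68 where the stressed pool was in Cy5 and 0.45 where it was in Cy3. With the dye term removed, the means within the 2 days given in the array headers were 0.55 over 8 arrays and 0.64 over 2 arrays. The 2 arrays of the second day both had the stressed pool in Cy3, and their ratios before that step were 0.67 and 0.38. The spot was bright in both channels on all 10 arrays.

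In the other 4 comparisons the Nr3c1 arrays lay on both sides of 0. Those of C57BL/6 at 4 h ran from -0.41 through a median of -0.14 to 0.21, with a fitted ratio of -0.12 ± 0.10 (adjusted p = 0.70). The spot was dim on array 5 of that set, at 63.8 in the Cy5 channel and 107 in Cy3, and bright on the other 9. The C57BL/6 arrays at 8 h ran from -0.47 through 0.15 to 0.57, and the fit gave 0.08 ± 0.13 (adjusted p = 0.90). In DBA/2J at 8 h they ran from -0.54 through -0.02 to 0.35, with a fit of -0.08 ± 0.10 (adjusted p = 0.82), and there the spot was bright on only 1 array for the stressed pool and on 3 for the basal pool. In the basal comparison the arrays ran from -0.34 through 0.20 to 0.55, and the fit gave 0.15 ± 0.14 (adjusted p = 0.69).

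The strain difference of the 4 h response tests whether the 2 strains' pools responded alike. For Nr3c1 the DBA/2J response exceeded the C57BL/6 response by 0.68 ± 0.15 (-0.68 with the sign turned), with an interval of 0.37 to 1.00 and an adjusted p of 0.017. On 9 of 10 arrays the DBA/2J ratio lay above all 10 ratios of C57BL/6, and array 7 lay among them. This clone was called, beside 2.34% of all clones (1.16% higher and 1.19% lower). It stayed called when any single array was left out, with adjusted p from 0.0065 to 0.038. The difference was 0.69 with an adjusted p of 0.12 when the 3 arrays of C57BL/6 with the lowest Fkbp5 signal were left out together, a choice made after seeing the data. It was 0.68 with an adjusted p of 0.11 when the array number was a block, although the numbers were not found to pair the arrays.

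The 8 h response of DBA/2J lay below its 4 h response for Nr3c1. The difference was -0.64 ± 0.15 (0.64 with the sign turned), with an adjusted p of 0.047, beside 1.00% of all clones called. Of the 10 arrays at 8 h, 4 lay below all arrays at 4 h. This call was lost in 19 of 20 fits that left out 1 array, with adjusted p from 0.024 to 0.092, and the 8 h side rests on spots that were mostly not bright. In C57BL/6 the corresponding difference was 0.19 ± 0.15 (adjusted p = 0.72). The strain difference at 8 h was -0.15 ± 0.16 (adjusted p = 0.80).

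Markers of several cell types moved in the strain difference at 4 h in which Nr3c1 was called. Among PVN neuroendocrine markers 1 of 7 clones was lower (Trh, -1.08 ± 0.15, adjusted p = 0.00032), among neuronal markers 2 of 19 (1 of 5 clones of Eno2, -0.70, and 1 of 2 of Syn1, -0.90) and among astrocyte markers 3 of 26 (1 of 4 clones of Aldoc, -0.83, and 2 of 9 of Glul, -0.70 and -0.61). No clone of the oligodendrocyte, endothelial, microglial, blood or choroid plexus markers was called, and no marker of any list was called higher, beside 1.19% of all clones called lower and 1.16% called higher. The list medians were -0.09, -0.14 and -0.16 for the first 3 lists, beside 0.00024 over all clones, and their clones ranged from -1.08 to 0.06, from -0.90 to 0.58 and from -0.83 to 0.52. In the DBA/2J response at 8 h against 4 h, Trh (0.81) and 1 clone of Aldoc (0.70) were called higher and no other marker was called. Nr3c1 thus differed with the opposite sign to the markers that were called. The part of these markers in the result for Nr3c1 was not tested.

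Nr3c2, the second receptor for the same hormones, gave ratios of similar size in DBA/2J at 4 h but with more scatter and less signal. Its arrays there ran from -0.89 through 0.53 to 1.68, with 9 of 10 above 0. The fit gave 0.54 ± 0.18 (unadjusted p = 0.011, adjusted p = 0.29), a 1.46-fold difference that was not called. The means of the dye orientations were 0.24 and 0.84, and the spot was bright on 3 arrays for the stressed pool and on 1 for the basal pool. The C57BL/6 arrays at 4 h ran from -0.84 through -0.41 to 0.65, and the fit gave -0.27 ± 0.16 (adjusted p = 0.56). The strain difference of the 4 h response was 0.81 ± 0.25 with an adjusted p of 0.10, and the arrays of the strains overlapped. The DBA/2J response at 8 h minus that at 4 h was -0.58 ± 0.27 (adjusted p = 0.38).

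The ratio of Nr3c2 followed the dye in C57BL/6 at 8 h. These arrays ran from -3.39 to 3.11, with a mean of -2.47 where the stressed pool was in Cy5 and of 2.21 where it was in Cy3. The Cy3 channel of those arrays had a median of 1603 at this spot against 187 in Cy5, whichever pool was in it. With the dye term taken out the ratio was -0.13 ± 0.22 (adjusted p = 0.90), and no direction can be read from it. In DBA/2J at 8 h the arrays ran from -1.04 through -0.07 to 0.94 (fit -0.04 ± 0.19, adjusted p = 0.96), with the spot bright on 0 of 10 arrays. In the basal comparison they ran from -0.04 through 0.34 to 0.87 with 9 of 10 above 0, and the fit of 0.38 ± 0.15 had an adjusted p of 0.21.

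Fkbp5, the co-chaperone that the receptor induces, had its largest stress ratios in the C57BL/6 pool at 4 h (0.48, or -0.48 with the sign turned) and the DBA/2J pool at 8 h (0.45, or -0.45). At 4 h in C57BL/6 all 10 arrays were above 0, from 0.01 through a median of 0.40 to 1.65, and the fit gave 0.48 ± 0.14 (unadjusted p = 0.0047, adjusted p = 0.17). The highest array, number 6, had a Cy5 intensity of 34.2 at this spot and was not bright in that channel. Without it the ratio was 0.35 ± 0.09 (adjusted p = 0.21). The Cy5 signal was also low on arrays 7 and 8, at 90.5 and 199 against 1141 to 2046 on the other 7 arrays of the set, and the spot was not bright on array 7 but bright in both channels on array 8. With arrays 6, 7 and 8 all left out, a choice made after seeing the data, the ratio was 0.41 ± 0.12 (adjusted p = 0.46). In 1 fit of all 50 arrays the ratio of 0.48 had an adjusted p of 0.046 and stayed under the fold required for a call. With loess run within each print tip, such a fit gave 0.53 (adjusted p = 0.0096), which was called.

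In DBA/2J at 8 h the Fkbp5 arrays ran from -0.19 through 0.51 to 1.07 with 9 of 10 above 0. The fit gave 0.45 ± 0.12 (unadjusted p = 0.0038, adjusted p = 0.18). The spot exceeded the empty spots' 95th percentile in neither channel on any of these 10 arrays. In DBA/2J at 4 h the arrays ran from -0.80 through 0.06 to 1.07 (fit 0.10 ± 0.16, adjusted p = 0.88), with means of 0.45 and -0.26 in the dye orientations. In C57BL/6 at 8 h they ran from -0.68 through -0.25 to 0.50 (fit -0.13 ± 0.12, adjusted p = 0.79). In the basal comparison they ran from -0.73 through -0.0049 to 0.70 (fit 0.06 ± 0.15, adjusted p = 0.91). Each of these last 3 sets straddled 0.

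The changes of Fkbp5 between responses did not pass the test either. In C57BL/6 the 8 h response lay below the 4 h response by -0.61 ± 0.17 (unadjusted p = 0.0022, adjusted p = 0.15), beside 0.495% of all clones called, and 7 of 10 arrays at 8 h lay below all arrays at 4 h. The strain difference at 8 h was 0.58 ± 0.16 (unadjusted p = 0.0017, adjusted p = 0.13), beside 0.600% of all clones called. With only clones whose mean brightness exceeded that of the empty spots' 95th percentile kept, the first was called with an adjusted p of 0.031. The second then had an adjusted p of 0.0021, but Fkbp5 passed that filter only through the C57BL/6 arrays and failed it on those of DBA/2J at 8 h. The strain difference at 4 h was -0.38 ± 0.21 (adjusted p = 0.44), and the 8 h response of DBA/2J exceeded its 4 h response by 0.35 ± 0.20 (adjusted p = 0.51).

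Klf15 was bright on almost no array, and its 2 clones did not give the same picture. Klf15 clone 2 was the only clone of the 4 genes called in the basal comparison, where it lay below 0 on 10 of 10 arrays, from -1.16 through -0.62 to -0.12. The fit gave -0.61 ± 0.15 (adjusted p = 0.031), with means of -0.59 and -0.63 in the dye orientations, beside 2.02% of all clones called lower. As the spot was not bright on any array in either channel, this is a difference between 2 signals at the level of empty spots and gives no fold. Markers of other cells differed between the same 2 pools, with 7 clones higher and 2 lower of 29 for oligodendrocytes, 4 higher of 26 for astrocytes, 2 higher of 5 for blood and 1 lower of 7 for PVN neuroendocrine neurons, beside 1.60% of all clones called higher and 2.02% lower, and their part in this result was not tested. Klf15 clone 1 had the opposite sign there, at 0.42 ± 0.20 (adjusted p = 0.32) and from -1.01 through 0.47 to 1.56 over the arrays.

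In the stress comparisons the ratios of Klf15 clone 1 were -0.50 ± 0.30 and 0.51 ± 0.24 in C57BL/6 at 4 h and 8 h, and -0.27 ± 0.21 and 0.13 ± 0.11 in DBA/2J, with adjusted p from 0.55 to 0.71. Those of Klf15 clone 2 were 0.31 ± 0.19 and 0.06 ± 0.28 in C57BL/6 and 0.26 ± 0.23 and -0.18 ± 0.16 in DBA/2J, with adjusted p from 0.56 to 0.97. The 2 clones had opposite signs in 4 of the 5 comparisons. On the arrays of DBA/2J at 8 h Klf15 clone 1 had a median intensity of 749 in Cy5 and 1054 in Cy3, against 73.7 to 251 on the others, while the empty spots' upper range also rose there. Over the 50 arrays the uncentred correlation between the clones was -0.17, a description over arrays that share pools.

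**Figure D2:**
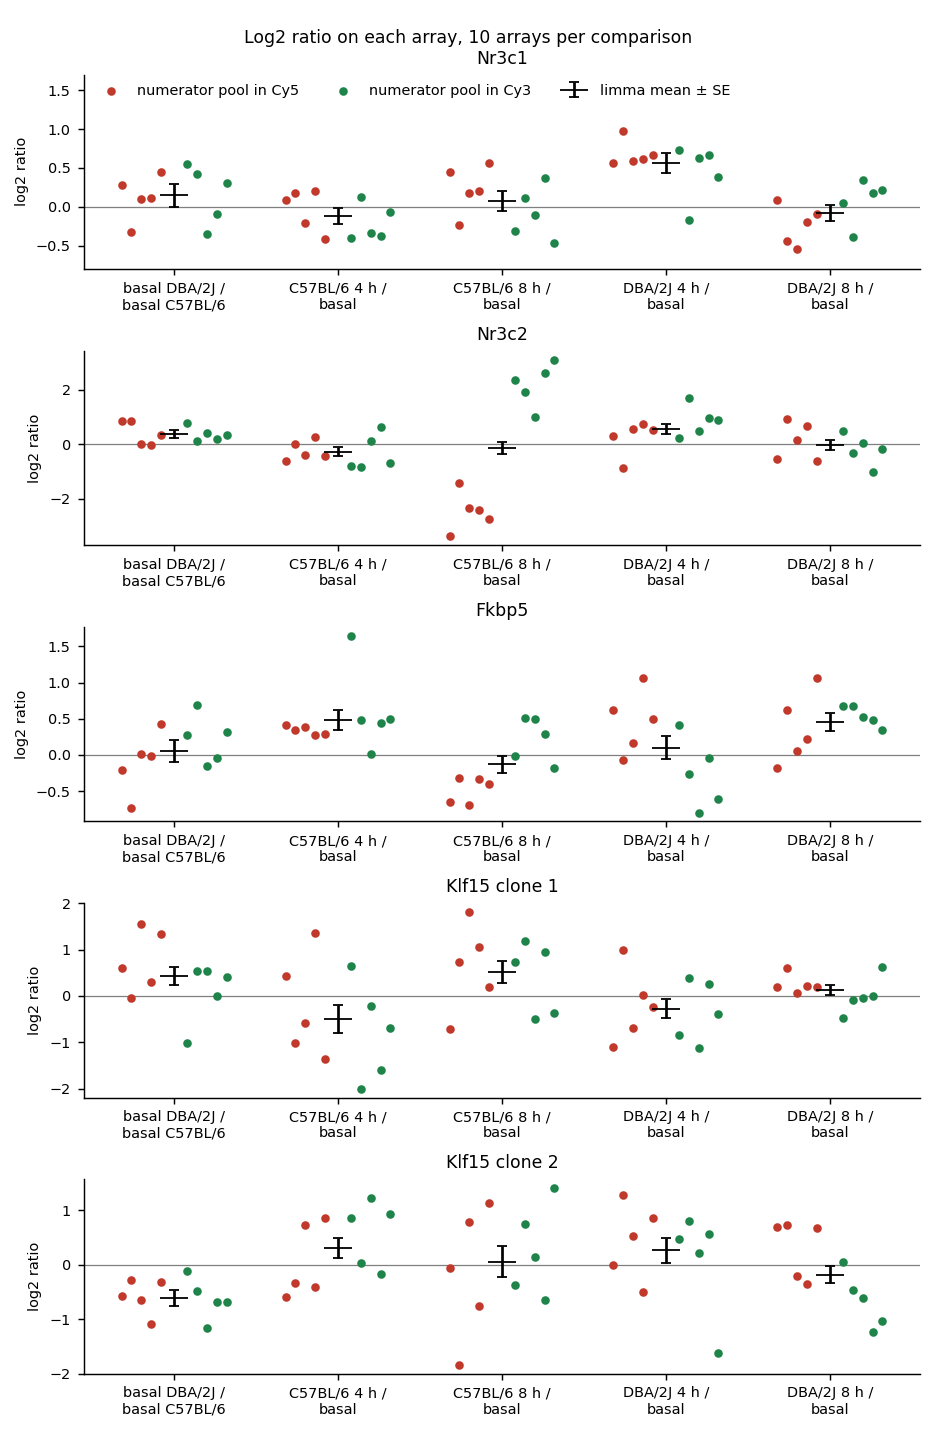
Log2 ratio (numerator over denominator pool as labelled) of each clone on each of the 10 arrays of the 5 comparisons, with red points for the numerator in Cy5, green points for Cy3, and black marks for the limma mean with its standard error. Nr3c1 in DBA/2J at 4 h has 9 of 10 points above 0, Fkbp5 in C57BL/6 at 4 h has 10 of 10, and Nr3c2 in C57BL/6 at 8 h splits by dye.

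The 5 comparisons connect all 6 pools, so that each clone has a log2 level in every pool relative to basal C57BL/6 from 1 fit of 50 arrays. Nr3c1 was highest in DBA/2J at 4 h (0.71 ± 0.15), followed by basal DBA/2J (0.15), C57BL/6 at 8 h (0.08), DBA/2J at 8 h (0.07), basal C57BL/6 (0) and C57BL/6 at 4 h (-0.12). With the sign turned this order reverses and DBA/2J at 4 h is the lowest pool (-0.71). In this fit, which shares the spread of all comparisons, the step of 0.56 ± 0.10 from basal DBA/2J to DBA/2J at 4 h had an adjusted p of 0.00057, and the other neighbours had adjusted p from 0.83 to 0.99. For Nr3c2 DBA/2J at 4 h was also first (0.93 ± 0.26) and C57BL/6 at 4 h last (-0.27 ± 0.19), and no neighbouring pair passed the test (adjusted p from 0.11 to 0.97). Against DBA/2J at 4 h, C57BL/6 at 4 h was called lower (-1.19, adjusted p = 0.017). So were basal C57BL/6 (-0.93, adjusted p = 0.020) and C57BL/6 at 8 h (-1.05, adjusted p = 0.048). With loess run within each print tip, the pair with C57BL/6 at 8 h was not called (adjusted p = 0.055). The Nr3c2 spot was bright on 0 of 10 arrays in C57BL/6 at 4 h. For Fkbp5 the order was DBA/2J at 8 h (0.51 ± 0.18), C57BL/6 at 4 h (0.48 ± 0.13), DBA/2J at 4 h (0.16), basal DBA/2J (0.06), basal C57BL/6 (0) and C57BL/6 at 8 h (-0.13), with adjusted p between neighbours from 0.55 to 0.98. With loess run within each print tip, C57BL/6 at 4 h was the highest for Fkbp5 (0.53). Klf15 clone 1 ran from 0.55 in DBA/2J at 8 h to -0.50 in C57BL/6 at 4 h, and Klf15 clone 2 from 0.31 in C57BL/6 at 4 h down to -0.79 for the DBA/2J pool of 8 h.

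**Figure D3:**
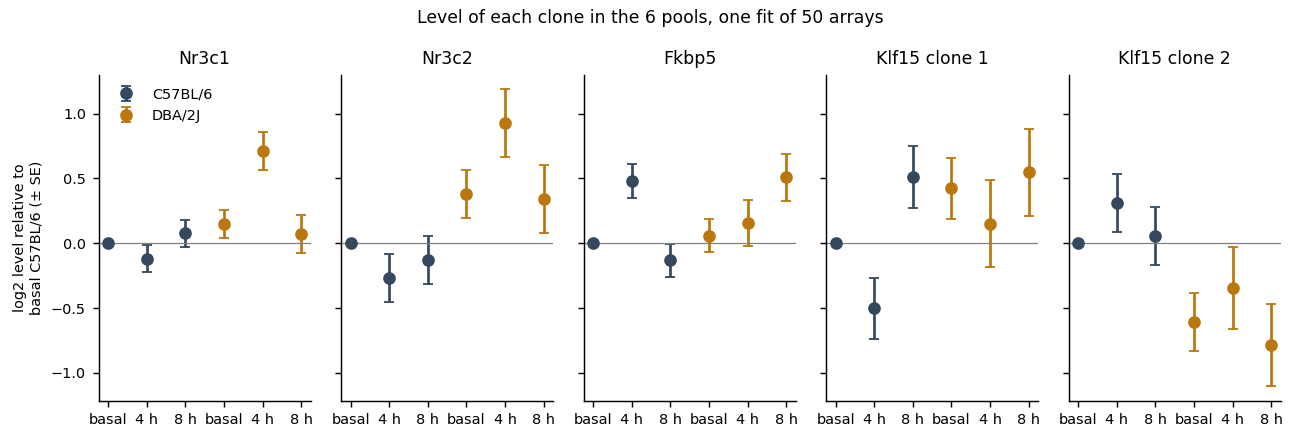
Log2 level of each of the 5 clones in the 6 pools relative to basal C57BL/6, with standard errors from 1 limma fit of the 50 arrays. As labelled, Nr3c1 and Nr3c2 are highest in DBA/2J at 4 h (0.71 and 0.93, or -0.71 and -0.93 with the sign turned), and DBA/2J at 8 h is the highest pool for Klf15 clone 1 (0.55) and the lowest for Klf15 clone 2 (-0.79).

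The clones whose ratios over the 50 arrays were most like those of each clone were taken from 4408 bright clones with a gene name, by uncentred correlation after the dye term was removed. For Nr3c1 they were wingless related MMTV integration site 10b (0.63), ATP-binding cassette sub-family D member 1 (0.58) and catenin beta (0.57). For Nr3c2 they were inhibitor of DNA binding 4 (0.53), catenin beta (0.50) and progesterone receptor membrane component 1 (0.50). Catenin beta was thus among the 3 for both receptors. For Fkbp5 they were striatin (0.68), ADP-ribosylation factor 1 (0.61) and ribosomal protein L27a (0.56). For Klf15 clone 1 they were protein tyrosine phosphatase receptor type E (0.56), contactin 1 (0.51) and tissue inhibitor of metalloproteinase 2 (0.51). For Klf15 clone 2 they were secretory carrier membrane protein 1 (0.54), transmembrane 9 superfamily member 1 (0.53) and Dnajb1 (0.46). These values are descriptions over arrays that share pools and dyes. Among pairs of the 5 clones themselves the correlation lay between -0.18 and 0.10.

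By printed name, 33 clones of 15 of the 18 listed genes of the receptor's chaperone complex were matched. No clone was matched to Hsp90aa1, the alpha form of Hsp90. The study lists heat shock protein 1, alpha as lowered in C57BL/6 at 8 h, and its clone is not covered here. Hsp90 and Hsp70 proteins fold the receptor into the form that binds hormone, and Ptges3 stabilises that form. In the basal comparison 5 of 33 clones were higher and 1 was lower, beside 1.60% and 2.02% of all clones, and the list median was 0.07 beside 0.01 over all clones. The higher clones belonged to Ptges3 (0.64 ± 0.13 and 0.52 ± 0.13), the constitutive Hsp70 Hspa8 (2 of 4 clones, 0.59 and 0.57) and its relative Hspa4 (1 of 4, 0.51), and the lower clone to the Hsp90 cofactor Chordc1 (1 of 3, -0.59). In the strain difference at 4 h 1 of 2 clones of Hsp90ab1, the constitutive Hsp90, was lower (-0.82 ± 0.16, adjusted p = 0.0063) and 1 of 3 Chordc1 clones was higher (0.68). Of all clones, 1.19% were called lower and 1.16% higher there.

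Ptges3 gave the only calls among the matched clones of this list in the stress comparisons. Of its 4 clones, 2 were higher in C57BL/6 at 8 h (1.60 ± 0.11, adjusted p = 8.6e-05, and 0.78 ± 0.12, adjusted p = 0.038), beside 0.0789% of all clones. In DBA/2J at 8 h 2 were lower (-0.88 ± 0.08, adjusted p = 0.0070, and -0.70 ± 0.08, adjusted p = 0.024), also beside 0.0789%. The other 2 clones were at 0.0045 and 0.0017 in C57BL/6 and at 0.13 and -0.20 in DBA/2J, so that clones under the same name disagreed. For the 2 called clones of Ptges3 the strain differences of the 8 h response were -2.48 ± 0.12 and -1.48 ± 0.13. There 1 of 4 clones of Hspa4 was also lower (-0.58 ± 0.13, adjusted p = 0.034), beside 0.394% of all clones called lower. No clone of the list was called in either strain at 4 h.

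The coregulators that the receptor recruits on DNA, printed as 33 clones of 21 genes, had 0 calls by limma in all 5 comparisons and in the 4 differences between responses. At an unadjusted p under 0.05, between 3 and 8 of the 33 clones passed in each, beside 9.28% to 15.4% of all clones. Their medians lay between -0.08 and 0.05. The other FK506 binding proteins (13 clones of 8 genes), the other Kruppel-like factors (15 clones of 9 genes) and the genes of glucocorticoid supply and export (5 clones of 5 genes) also had 0 calls in all 9 tests. At an unadjusted p under 0.05 they had 1 to 3, 1 to 3 and 0 to 2 clones, beside the same shares of all clones. Among the other nuclear receptors, 34 clones of 28 genes, the thyroid hormone receptor Thrb (-0.87 ± 0.14, adjusted p = 0.0034) and the retinoic acid receptor Rarb (-0.63 ± 0.14, adjusted p = 0.017) were lower in the basal comparison. Of all clones, 2.02% were called lower there, and no clone of this list was called elsewhere.

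Other known targets of the glucocorticoid receptor were printed as 52 clones of 35 genes, and 0 of 52 were called by limma in the 4 stress comparisons. At an unadjusted p under 0.05, 4 of 52 passed in C57BL/6 at 4 h, 11 in C57BL/6 at 8 h, 8 in DBA/2J at 4 h and 7 in DBA/2J at 8 h, beside 12.3%, 9.28%, 10.7% and 12.0% of all clones. Their medians there were -0.00092, 0.04, -0.08 and 0.02, beside -0.0056 to 0.0030 over all clones. In the basal comparison 4 of the 9 clones of Glul, the glutamine synthetase of astrocytes, were higher (0.85 to 1.22), and Camk1g, a calcium-dependent kinase, was lower (-0.81 ± 0.14, adjusted p = 0.0046). Of all clones, 1.60% were called higher and 2.02% lower there. Between responses, 1 of 3 clones of Rgs2, a brake on G protein signalling, differed between strains at 8 h (0.91 ± 0.11, adjusted p = 0.00011) and fell from 4 h to 8 h in C57BL/6 (-0.71 ± 0.12, adjusted p = 0.0065). The shares of all clones called in the same direction were 0.206% and 0.114%. The metallothionein Mt1 was higher at 8 h than at 4 h in DBA/2J (0.75 ± 0.15, adjusted p = 0.016), beside 0.561% of all clones called higher. The Sgk1 clone, whose promoter window with the response element is printed above, was at 0.22 in C57BL/6 and -0.01 in DBA/2J at 4 h and was not called.

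The peptides and receptors of the stress axis, 10 clones of 10 genes, had 1 call in the stress comparisons, in DBA/2J at 4 h, where 0.140% of all clones were called lower. Trh was lower in DBA/2J at 4 h on 10 of 10 arrays (-0.75 ± 0.12, adjusted p = 0.031, or 0.75 with the sign turned), where Nr3c1 had the opposite sign in either reading. Its 8 h response in DBA/2J exceeded its 4 h response by 0.81 ± 0.19 (adjusted p = 0.046, or -0.81 with the sign turned). The list median in DBA/2J at 4 h was -0.18 beside 0.0030 over all clones.

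**Figure D4:**
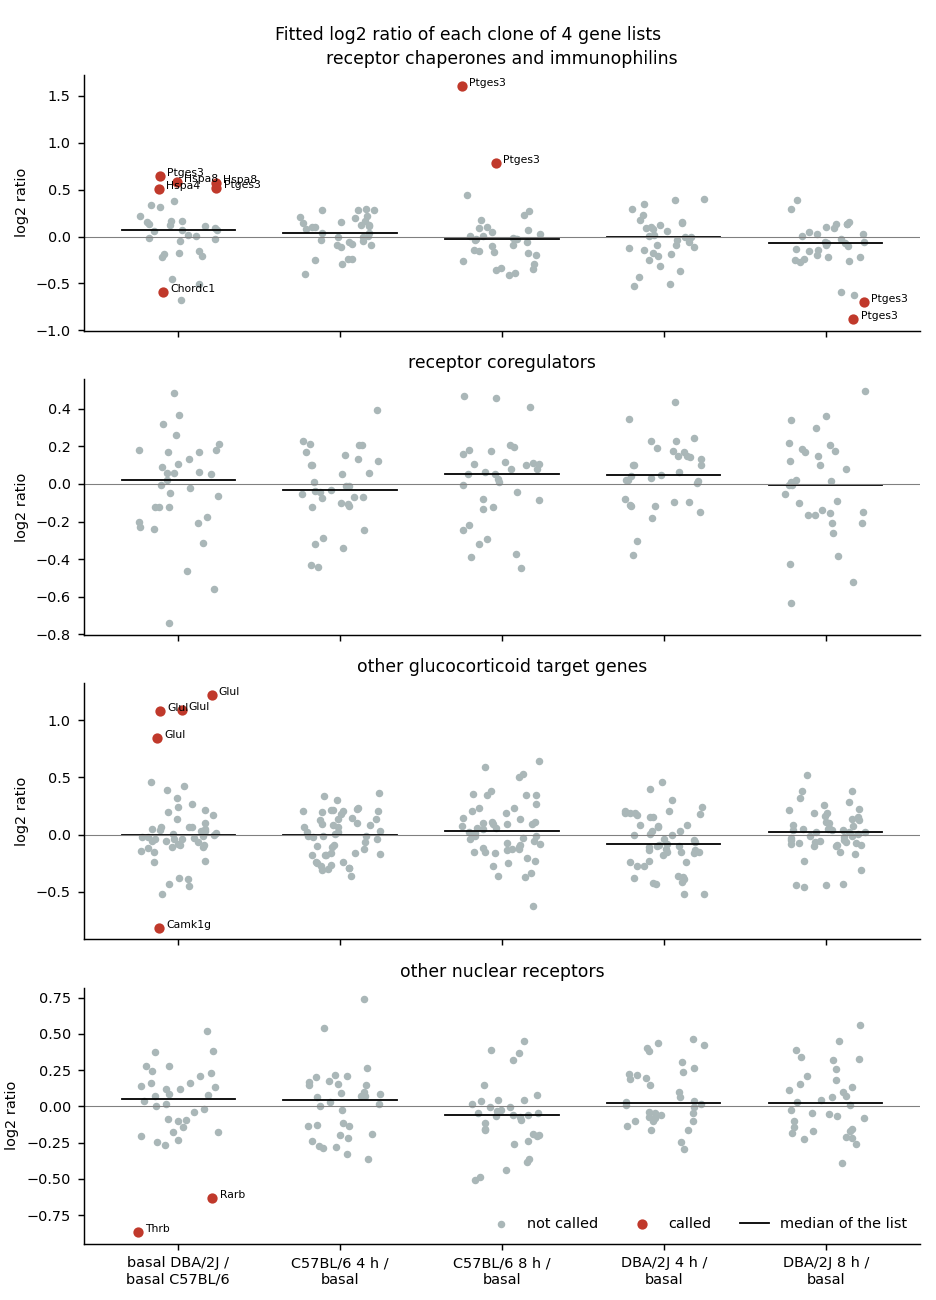
Fitted log2 ratio of every clone of 4 gene lists (receptor chaperones, coregulators, other glucocorticoid targets, other nuclear receptors) in the 5 comparisons, with called clones in red and labelled and list medians as black lines. Calls lie mostly in the basal comparison and, after stress, with the Ptges3 clones at 8 h.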

How the data were processed

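The authors amplified the RNA, labelled it with Cy3 and Cy5, scanned the arrays and deposited a spot intensity for each channel of 50 arrays, with 24192 spots of which 1368 were controls. They also deposited a table of normalised log2 ratios, which holds 19047 spots and 4 of the 5 clones described (all but Klf15 clone 1), and whose columns correlated with the scanner ratios at 0.818 to 0.965. In the headers of 4 arrays Cy5 is the second channel, and the dye was taken from there. No column was left unmapped to a sample. Gene symbols were assigned by hand from printed names (177 symbols, 292 clones).

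Intensities were background corrected by normexp with an offset of 50 and normalised by loess within each array with control spots at weight 0 (limma 3.58.1, R 4.3.3). The 10 arrays of a comparison were fitted by lmFit and eBayes with a dye term, and differences between responses over 20 arrays, with Benjamini-Hochberg adjustment over 22824 clones. The scripts were tested on simulated data. Alternatives were raw signals without background correction, loess by print tip, centring on the median, scaling across arrays, the deposited table, dropping dim clones, leaving out the dye term, each dye orientation alone, both averaged, the t-test of the methods, all 50 arrays in 1 fit, blocks by header day and by array number, and leaving out each array. A fit without the 3 arrays of C57BL/6 at 4 h with the lowest Fkbp5 signal was added after the data were seen.

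The members and lists were chosen with earlier results of these data known. All clones of the 4 genes are named. From each list, called clones are named up to 4 per list and comparison by size. The most alike clones are the 3 with the highest uncentred correlation. Depth has no counterpart here, and the number of arrays limits the precision: over all clones the standard error of a ratio in log2 had a median of 0.158 to 0.186 by comparison. Numbers matched between comparisons did not pair the arrays, since same-numbered deviations correlated at -0.016 to 0.021.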

Additional observations from a re-analysis of the deposited data

Results flagged for a closer look

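Among 25 sets of 10 arrays, 1 array stood far from the other 9 in 2 sets, and chance gives about 1 in 20. Nr3c1 in DBA/2J at 4 h was at -0.17 on array 7, where the other 9 arrays lay between 0.38 and 0.97. Fkbp5 in C57BL/6 at 4 h was at 1.65 on array 6, where the other 9 lay between 0.01 and 0.50 and where the Cy5 intensity of the spot was 34.2.

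2 responses differed for Nr3c1. The 4 h response of DBA/2J exceeded that of C57BL/6 by 0.68 (adjusted p = 0.017), with adjusted p from 0.0014 to 0.999 over its alternatives. The 8 h response of DBA/2J minus its 4 h response was -0.64 (adjusted p = 0.047), with adjusted p from 0.00026 to 0.9998 over its alternatives. The lowest of these came with the filter on dim clones, which Nr3c1 passed only through the 4 h arrays.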

How the results depend on the processing

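The log2 ratios of the 5 clones kept their direction, or were not called, in all but 2 cases over all alternatives run, both for Nr3c2, whose ratio followed the dye. With the arrays that had the numerator in Cy3 alone, its ratio in C57BL/6 at 8 h was 2.21 and its strain difference at 8 h was -2.41 (adjusted p = 0.038 for both). Ratios that were not called did change sign. Apart from fits that left out an array, Klf15 clone 2 did so in 5 of 13 alternatives for the strain difference at 4 h. Fkbp5 in DBA/2J at 4 h did so in 3 of 14, with ratios from -0.26 to 0.45. Nr3c1 did so in 1 of 14 in C57BL/6 at 8 h. In DBA/2J at 4 h and in the strain difference at 4 h, Nr3c1 did so in 0 of 14. The number of these clones called varied as well. The basal call (1, Klf15 clone 2) became 0 without background correction, with the filter on dim clones, with either dye orientation alone, with orientations averaged and with all 50 arrays in 1 fit, and was 0 to 1 when an array was left out. In DBA/2J at 4 h, 0 became 1 (Nr3c1) with the filter on dim clones, the adjusted t-test of the methods, all 50 arrays and header day as a block (0.56, adjusted p = 0.031), and 2 with the unadjusted t-test (Nr3c1 and Nr3c2). Over all clones, the main fit called 3 higher there and the fit with header day as a block 97, at median standard errors of 0.183 and 0.156. The block correlation was negative (-0.041), and both arrays of the second day had the stressed pool in Cy3. In C57BL/6 at 8 h the Cy3 arrays alone gave 1 (Nr3c2). The strain difference at 4 h (1, Nr3c1) became 0 with either orientation alone, with orientations averaged, with the 3 arrays of lowest Fkbp5 signal left out and with the replicate block, and was 1 to 2 when an array was left out. The strain difference at 8 h (0) became 1 with the filter on dim clones (Fkbp5, which passed it only through the C57BL/6 arrays) and with the Cy3 arrays alone (Nr3c2). In C57BL/6 the 8 h against 4 h difference (0) became 1 with the filter on dim clones (Fkbp5). In DBA/2J it (1, Nr3c1) became 0 with scaling between arrays, no dye term, either orientation alone, orientations averaged and the replicate block, and was 0 to 1 when an array was left out. The highest and lowest pools stayed the same for 4 of 5 clones with print-tip loess. The cause was not tested in any of these cases.

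The array number as a replicate block left 127, 30, 15 and 0 of all clones called in the 4 differences, against 535, 137, 113 and 229 without it. Arrays with the same number did not deviate together, and 0 of 10 pairs correlated above 0.1. Calls over all clones in the 5 comparisons and 4 differences ranged widely over the other alternatives, for the basal comparison from 35 to 1535. All 5 clones fell under the filter on dim clones in DBA/2J at 8 h, which gave no value there, and header day could not be a block in C57BL/6 at 4 h, where all arrays shared 1 day. Signal over background limits Nr3c2 and Klf15, and every clone on the arrays of DBA/2J at 8 h.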

Other observations

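The 5 clones did not move as 1 group over the 50 arrays. Uncentred correlations between pairs of them were 0.095 for Nr3c1 and Nr3c2, 0.042 for Nr3c1 and Fkbp5, and -0.12 for Nr3c2 and Fkbp5, as descriptions over arrays that share pools. The deposited table of normalised log2 ratios gave Nr3c1 in DBA/2J at 4 h as 0.63 (adjusted p = 0.054), its strain difference at 4 h as 0.72 (adjusted p = 0.0063) and its 8 h response against its 4 h response in DBA/2J as -0.72 (adjusted p = 0.013).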
